A study of Rattus norvegicus with 14 samples.

Results

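Methylation was described for the megabases of the rat autosomes that held the most measured sequence in reduced representation bisulfite sequencing (RRBS) of soleus muscle. Each autosome was divided into bins of 1 Mb, the measured 1 kb windows of every bin were counted, and the bins with 200 or more windows were kept. This gave 120 of 2472 autosomal bins (4.85%), which held 29276 of 188511 autosomal windows (15.5%). The count did not use any methylation level. A bin written as 9 to 10 Mb runs from base 9000001 to base 10000000 of its chromosome, on rn7.

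DNA came from the left soleus, a calf muscle made largely of slow-twitch fibres. The rats were females of 23 to 24 months, kept on standard chow. They came from generation 44 of lines bred for high running capacity (HCR, 6 samples) or low running capacity (LCR, 8 samples) from the genetically heterogeneous N:NIH stock. No group was treated, and the comparison asks which methylation levels differ between old muscle of high and of low inborn aerobic capacity. Each direction of selection is represented by a single line, so selection and other differences between these lines cannot be told apart. The labels do not say which libraries shared a bisulfite pool, so no comparison within pools was made, and the part of the pools in the line differences was not tested. Nothing in the labels states that every sample is a different rat, and the p-values then measure only the spread between these samples. Only DNA methylation was measured, so the tissue label was not checked against expressed markers.

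In mammalian DNA, methyl groups are added to cytosines mainly where a guanine follows (CpG sites). Most CpG sites of the genome are methylated, while clusters of CpG sites at many promoters, called CpG islands, usually stay unmethylated. RRBS cuts DNA with MspI at CCGG sites and reads short fragments, so it samples CpG-rich sequence, and a megabase with many windows is one with many such fragments. Gene-rich parts of chromosomes usually hold more CpG islands. The genes and sequences of these bins were not analysed here.

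The window-rich bins lay on 16 of the 20 autosomes and often next to each other. Chromosome 10 had 19 of them, chromosomes 5 and 12 had 18 each, chromosome 3 had 14, chromosome 20 had 11 and chromosome 1 had 10. Chromosome 12 was the densest, with 38.3% of its bins and 52.9% of its windows, followed by chromosome 20 with 20% of its bins and 43.9% of its windows. The long chromosomes 2 and 4 had 1 such bin each, and chromosomes 11, 14, 15 and 18 had 0. The 120 bins formed 59 separate stretches, of which 34 were single bins and 25 joined 2 or more, 86 bins in all. The longest stretches were 98 to 106 Mb of chromosome 10 with 8 bins, 159 to 166 Mb of chromosome 5 with 7 bins, and 153 to 159 Mb of chromosome 3 and 145 to 151 Mb of chromosome 5 with 6 bins each.

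A window-rich bin held 200 to 423 windows, with a median of 234.5, against a median of 57 over all autosomal bins. The 10 fullest bins had 309 or more. Chromosome 7 had the 9 to 10 Mb bin with 423 windows and, beside it, the 8 to 9 Mb bin with 365. Chromosome 20 had the 5 to 6 Mb bin with 387 and the 3 to 4 Mb bin with 318. The others of the 10 were 49 to 50 Mb of chromosome 19 (317 windows), 103 to 104 and 101 to 102 Mb of chromosome 10 (316 and 311), 42 to 43 Mb of chromosome 12 (314), 161 to 162 Mb of chromosome 3 and 162 to 163 Mb of chromosome 5 (309 each, as many as 41 to 42 Mb of chromosome 12). The limit of 200 cut through a continuous distribution. Just inside it, the bins at 87 to 88 Mb of chromosome 1, 79 to 80 Mb of chromosome 10 and 7 to 8 Mb of chromosome 12 held 200, 201 and 201 windows at mean levels of 30.4%, 28.01% and 32.7%. Just outside, the bins at 129 to 130 Mb of chromosome 7 and at 39 to 40 and 15 to 16 Mb of chromosome 12 held 199, 198 and 197 windows at 34.3%, 40.001% and 24.6%.

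Windows of these bins were closely spaced. The next measured window was directly adjacent for 38.5% of them, against 25.4% in the other autosomal bins, and the median step to it was 2 kb against 6 kb. Among the 120 bins this adjacent share ran from 26.0% at 37 to 38 Mb of chromosome 12 to 50.9% at 9 to 10 Mb of chromosome 7. The libraries also covered these windows more completely: 21921 of 29276 (74.9%) had a value in all 14 samples, against 69.0% of the windows elsewhere on the autosomes. These common windows are used below unless stated. Read depth was unknown, since the values are percentages without counts. HCR samples lacked a value in 2.17% to 6.78% of the member windows and LCR samples in 1.06% to 10.07%. The libraries without a value in the most and in the fewest of these windows were both LCR samples, replicate 7 with 2948 and replicate 4 with 311.

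Window-rich bins were less methylated than the rest of the autosomes in every sample. Their common windows had a mean of 32.3% ± 1.06 over the 6 HCR samples and 31.1% ± 1.05 over the 8 LCR samples (± SD). For the other autosomal windows the corresponding means were 36.3% ± 0.968 and 35.1% ± 1.04. Within single samples, window-rich minus other windows ran from -4.11 to -3.79 percentage points. This gap averaged -3.93 points ± 0.11 in HCR and -3.99 points ± 0.0907 in LCR. It was many times larger than its spread between samples, and the 2 lines overlapped in it. With all windows of the file, each sample averaged over those it had, the gap was -4.40 points, and the window-rich levels rose to 35.8% in HCR and 34.6% in LCR.

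Window-rich bins held larger shares of windows in each class under 50% and smaller shares in both classes above it. Windows were put in classes by their mean over all samples. In the window-rich bins 29.6% of the common windows were under 10%, 21.3% were at 10 to 30%, 20.4% at 30 to 50%, 21.5% at 50 to 70% and 7.24% at 70% or more. In the other autosomal bins the shares were 26.7%, 17.8%, 19.8%, 24.5% and 11.2%. The share at 70% or more was the one with the largest relative difference. With all windows of the file, which adds windows that some sample lacks, the window-rich shares under 10% and at 70% or more were 23.8% and 9.61%.

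**Figure D1:**
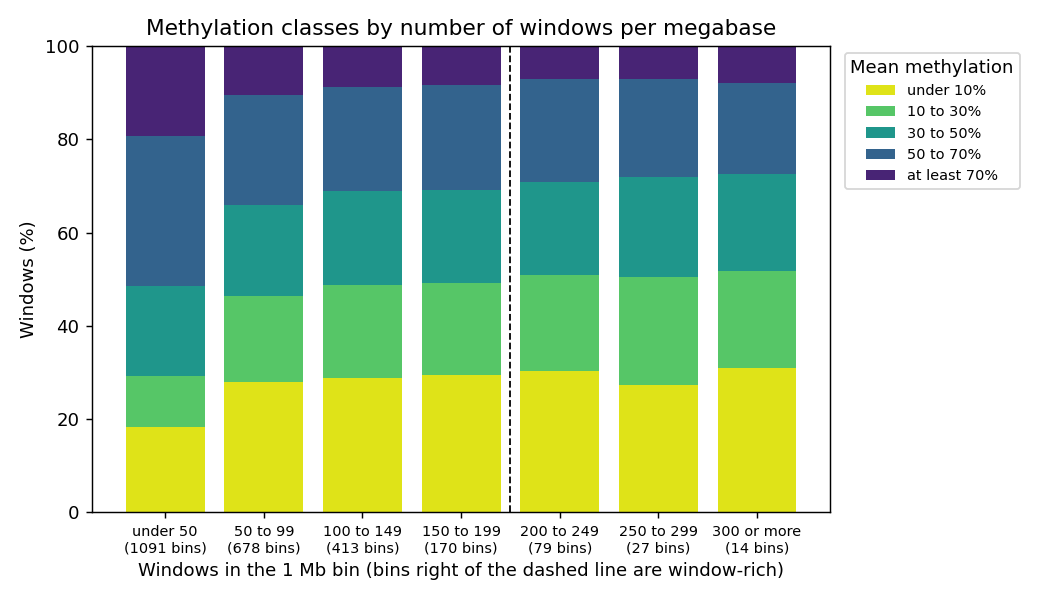
Share of common windows (y axis, %) in each class of mean methylation, for autosomal bins grouped by their number of windows (x axis, number of bins in brackets). Bars right of the dashed line are the window-rich bins; the class at 70% or more takes 19.4% in bins under 50 windows and 8.02% or less in the 3 groups of 200 windows and above.

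The step was not at 200 windows but at the sparse end of the genome. In the 1091 bins of fewer than 50 windows the common windows averaged 45.2%, with 18.2% of them under 10% and 19.4% at 70% or more. In the 678 bins of 50 to 99 windows the mean was already 34.6%. It was 33.0% at 100 to 149 windows, 32.7% at 150 to 199, 31.7% at 200 to 249, 32.01% at 250 to 299 and 31.1% in the 14 bins of 300 or more. Over all 1837 autosomal bins with at least 20 common windows, the number of windows and the mean level had a Pearson's r of -0.34 and a Spearman's rho of -0.37. Across the 120 window-rich bins alone they were -0.05 and 0.02. These correlations run across bins read in the same 14 libraries and are a description only.

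Adjacent windows of these bins were less alike in level than adjacent windows elsewhere. Of 7316 pairs of directly adjacent common windows in window-rich bins, 30.9% were both under 10% and in 21.7% exactly one was. In the other autosomal bins these shares were 40.5% and 17.2% of 25106 pairs. The median level difference between adjacent windows was 8.69 points in window-rich bins and 5.54 points elsewhere. Joining adjacent windows under 10% gave 4226 runs, 60.6% of them single windows, and runs of 3 or more held 21.6% of the unmethylated windows (19.0% elsewhere). The longest run covered 11 windows, 11749001 to 11760000 on chromosome 12, at a mean of 1.66%. The next were 10 windows at 19566001 to 19576000 on chromosome 8 (5.31%) and 9 windows each at 105519001 to 105528000 on chromosome 10 (1.08%) and 36126001 to 36135000 on chromosome 12 (3.15%).

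The bins differed widely from each other. Their mean levels over all samples ran from 19.2% to 45.0%, with a median of 31.9%, quartiles of 27.9% and 35.1% and an SD between bins of 5.40 points. The median SD between samples of one bin was 1.10 points in HCR and 1.12 points in LCR. The order of the bins was nearly the same in every library: over the 120 bins, Spearman's rho between any 2 of the 14 samples was between 0.978 and 0.995. Within a bin the windows spread much further, with an SD of 19.3 to 28.6 points.

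**Figure D2:**
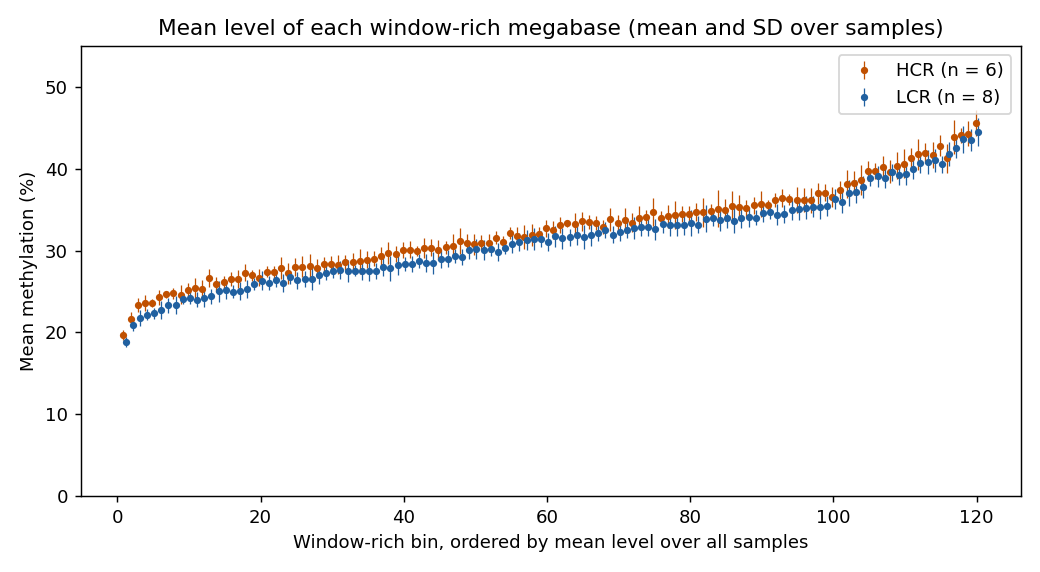
Mean methylation (y axis, %) of each of the 120 window-rich bins (x axis, ordered by the mean over all samples); points are line means and bars the SD over 6 HCR or 8 LCR samples. Levels run from 19.2% to 45.0%, and the HCR point lies above the LCR point in 119 bins.

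The 3 least methylated bins had many windows under 10%. At 18 to 19 Mb of chromosome 16, with 308 windows, the HCR samples lay at 18.8% to 20.6% (median 19.7%) and the LCR samples at 17.9% to 19.9% (median 19.0%). Of its common windows 53.1% were under 10%, the highest share of the 120 bins, and 3.91% were at 70% or more. The 81 to 82 Mb bin of chromosome 10 averaged 21.2% with 46.4% of windows under 10%, and the 174 to 175 Mb bin of chromosome 2, the only window-rich bin of that chromosome, averaged 22.5% with 46.6%. The next bins of chromosome 10 were also low, so that the stretch from 81 to 84 Mb ran from 21.2% to 24.6%.

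The 3 most methylated bins had few windows under 10% and many at 50 to 70%. At 166 to 167 Mb of chromosome 3 the HCR samples lay at 42.9% to 47.6% (median 45.7%) and the LCR samples at 41.9% to 45.9% (median 45.3%). Only 4.29% of its windows were under 10%, the lowest share of all, 38.6% were at 50 to 70% and 8.57% at 70% or more. The 163 to 164 Mb bin of chromosome 5 averaged 43.8% with 6.70% of windows under 10%, 32.5% at 50 to 70% and 10.5% at 70% or more. The 158 to 159 Mb bin of chromosome 3 averaged 43.8% with 10.8%, 34.1% and 11.4%. All 3 shares at 70% or more were above the 7.24% of the window-rich bins together. Over the 120 bins the share of windows under 10% ran from 4.29% to 53.1% and the share at 70% or more from 2.45% to 13.9%. Neighbouring bins could differ strongly: within the stretch at 153 to 159 Mb of chromosome 3 the levels ran from 24.3% to 43.8%, and the bin at 167 to 168 Mb of that chromosome stood at 25.7% beside 45.0% at 166 to 167 Mb.

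Between the lines, the mean over the window-rich windows was 1.18 points higher in HCR, against 1.12 points in the other autosomal windows. HCR samples ran from 30.4% to 33.6% (median 32.5%) and LCR samples from 29.7% to 32.8% (median 31.3%), so the lines overlapped. The highest sample was HCR replicate 4 and the lowest LCR replicate 7, and HCR replicate 3 was the lowest of its line. Without HCR replicate 3 the difference was 1.57 points and without HCR replicate 4 it was 0.931 points. No p is given for this mean over chosen bins. LCR replicate 7, the lowest sample, was also the one with the most windows without a value, 2948, and HCR replicate 3 had the second most, 1986. The comparisons of single bins were therefore also made with the number of windows each library lacked over the whole file as a covariate.

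In every class of level the HCR mean was above the LCR mean. The classes under 10% and at 70% or more had the smallest overlap between samples. In the 6486 window-rich windows under 10%, HCR samples lay at 3.16% to 3.68% (median 3.502%) and LCR samples at 2.85% to 3.32% (median 3.09%). Only HCR replicate 3 was below the highest LCR sample. For the 1587 windows of 70% or more, HCR samples lay at 75.4% to 76.7% (median 76.3%) and LCR samples at 74.7% to 75.9% (median 75.5%). The middle classes overlapped more, with differences of 1.67 points at 10 to 30%, 1.95 points at 30 to 50% and 1.19 points at 50 to 70%. The same classes outside the window-rich bins differed by 1.81, 1.73 and 1.15 points. Windows under 10% there lay at 2.93% to 3.50% in HCR samples and 2.64% to 3.17% in LCR samples. Those at 70% or more lay at 76.4% to 77.1% and 75.7% to 76.5%. The small overlap in these outer classes was therefore not particular to window-rich bins.

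Counted per sample, a window-rich library of HCR had 30.1% ± 1.08 of its windows under 10% (SD, n = 6) and one of LCR 31.4% ± 1.26 (SD, n = 8). At 70% or more it had 9.23% ± 0.638 in HCR and 8.15% ± 0.419 in LCR. HCR samples ran from 8.19% to 10.1% in this last share and LCR samples from 7.41% to 8.68%, and 5 of the 6 HCR samples, all but replicate 3, were above the highest LCR sample. In the other autosomal windows the shares at 70% or more were 13.1% ± 0.529 and 11.9% ± 0.476.

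**Figure D3:**
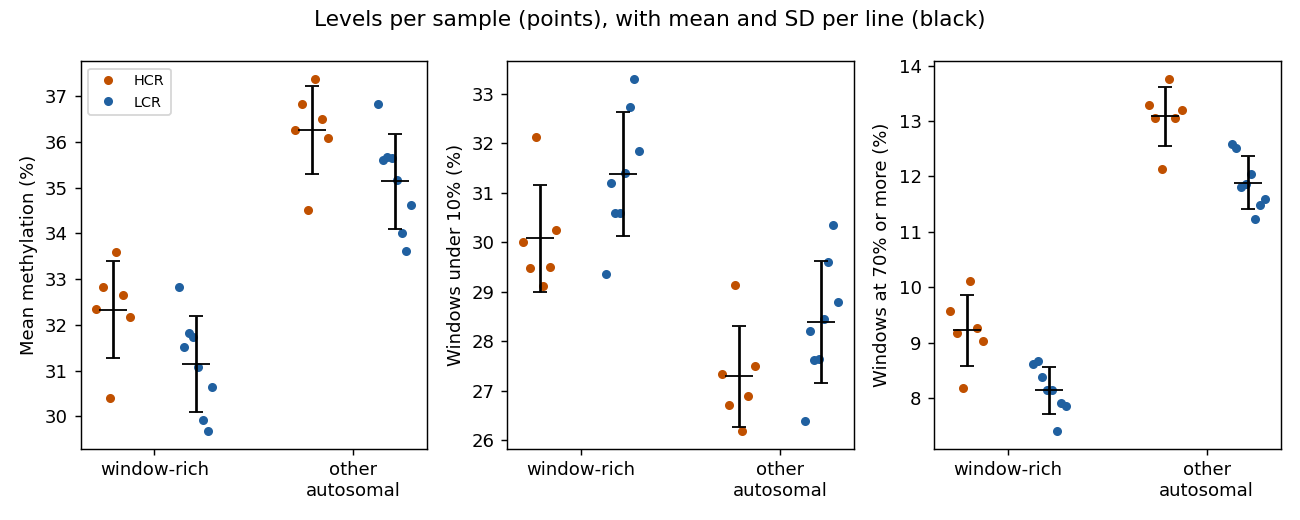
Mean methylation, share of windows under 10% and share of windows at 70% or more (y axes, %) in each sample, for window-rich bins and the other autosomal bins; points are samples, black marks the mean and SD of 6 HCR or 8 LCR samples. In window-rich bins the mean levels run from 30.4% to 33.6% in HCR and from 29.7% to 32.8% in LCR.

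Bin by bin, HCR was nominally higher in 119 of the 120 window-rich bins (99.2%) and in 1686 of all 1837 bins tested (91.8%). This high share was not particular to window-rich bins. HCR was higher in 169 of 170 bins of 150 to 199 windows and in 408 of 413 of 100 to 149. It was higher in 629 of 678 tested bins of 50 to 99 windows and in 361 of 456 under 50. Few bins passed the test. The mean level of each autosomal bin with at least 20 common windows was compared with limma, and p-values were adjusted by Benjamini-Hochberg over all 1837 bins. Over all of them 96 were called at an adjusted p under 0.05, a background of 5.23%, with 5.17% higher in HCR and 0.0544% lower. Of the 120 window-rich bins 2 were called (1.67%), both higher in HCR, a share below this background. At an unadjusted p under 0.05 there were 46 of 120 (38.3%) and 592 of 1837 (32.2%). The HCR and LCR samples overlapped in all 120 bins, and in all but 0.49% of the bins tested. All bins came from the same 14 libraries, and a common direction among them is no separate evidence for each bin. Every library was also centred on its mean over the bins tested, which removed 1.07 points between the lines. Of the window-rich bins 73 were then higher and 47 lower, and of all bins tested 939 and 898. Centring makes the differences of all bins tested cancel on average, so their near-even split was set in advance. What the shared direction came from was not tested.

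The differences were a few percentage points at most. They ran from -0.519 to 2.27 points, with a median of 1.19 points and quartiles of 0.84 and 1.504 points, against a median of 1.09 points over all bins tested. The standard error of a bin had a median of 0.662 points. The 95% interval of the difference lay above 0 in 46 bins and included 0 in 74.

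**Figure D4:**
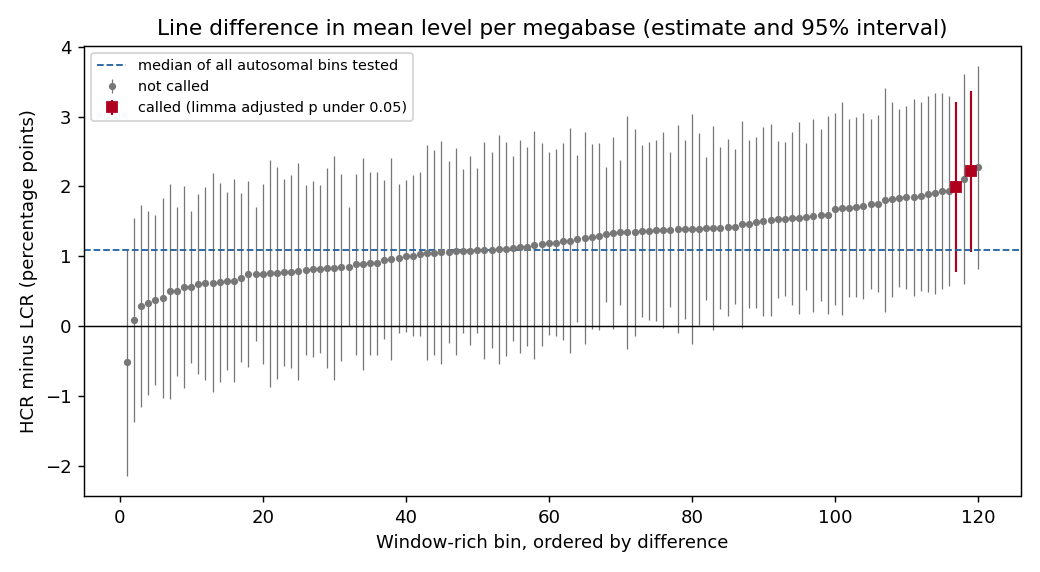
Difference in mean methylation, HCR minus LCR (y axis, percentage points), of each window-rich bin (x axis, ordered by the difference) with its 95% interval from limma; red squares are the called bins. The dashed line is the median of all autosomal bins tested, 1.09 points, and 74 of the 120 intervals include 0.

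The bin at 156 to 157 Mb of chromosome 3 was called. Its HCR samples lay at 24.5% to 27.8% (median 26.9%) and its LCR samples at 23.3% to 26.0% (median 24.6%). All HCR samples but replicate 3 were above all LCR samples. The line means (± SD) were 26.6% ± 1.11 and 24.4% ± 0.907, so HCR was 2.21 points higher (SE 0.57, 95% interval 1.06 to 3.37, limma adjusted p = 0.0303). After centring each library it was 1.14 points higher in HCR (limma adjusted p = 0.0599), and over all alternatives its adjusted p ran from 0.00152 to 0.342.

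At 111 to 112 Mb of chromosome 7 the HCR samples lay at 25.6% to 28.7% (median 27.5%) and the LCR samples at 23.9% to 27.0% (median 25.4%). HCR replicates 3 and 5 were within the LCR range. The difference was 1.99 points (SE 0.599, 95% interval 0.771 to 3.21, limma adjusted p = 0.0464), and after centring 0.915 points (limma adjusted p = 0.0986), with a range over all alternatives of 0.00174 to 0.438. The neighbouring bin at 110 to 111 Mb, also window-rich, differed by 0.805 points. The largest difference of all, 2.27 points (SE 0.712) at 45 to 46 Mb of chromosome 19, was not called (limma adjusted p = 0.0535).

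Which bins were called depended on the libraries. No window-rich bin was called without HCR replicate 1, 2, 4, 5 or 6, or without LCR replicate 5, 6, 7 or 8, where the count was 0 in each case. There was 1 without LCR replicate 2 or 3, 2 without LCR replicate 4, 41 without LCR replicate 1 and 62 without HCR replicate 3. Over all bins tested, 27.8% were called without LCR replicate 1 and 36.3% without HCR replicate 3, so these counts moved with the whole genome. In the other runs that left out a sample between 0.218% and 4.52% of all bins were called. With the number of windows a library lacked as a covariate 64 of the 120 were called, all higher in HCR, and 39.1% of all bins tested. HCR replicate 4 was the highest of the 14 samples in 88 of the 120 bins. LCR replicate 7 was the lowest in 66, LCR replicate 6 in 35 and HCR replicate 3 in 15.

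The one bin with a lower mean in HCR was 6 to 7 Mb of chromosome 12. Its HCR samples lay at 37.9% to 42.6% (median 42.0%) and its LCR samples at 39.8% to 43.7% (median 41.9%), which overlapped throughout. The difference was -0.519 points (SE 0.80, 95% interval -2.14 to 1.11, limma adjusted p = 0.618). After centring each library it was the only window-rich bin called, at -1.59 points (SE 0.441, limma adjusted p = 0.048), while 3.70% of all bins tested were called, 40 higher and 28 lower. The fullest bin of the genome, 9 to 10 Mb of chromosome 7, averaged 28.3% ± 0.862 in HCR and 27.3% ± 0.84 in LCR, a difference of 1.03 points whose interval ran from -0.137 to 2.21. Of the 10 fullest bins 0 were called, against 5.23% of all bins tested, and 10 bins are too few to differ visibly from that share.

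The share of unmethylated windows gave 1 called bin. Over all 1837 bins 0.327% were called for the share of windows under 10%, 0.272% with fewer in HCR, and of the window-rich bins 1 was (0.833%). It was 79 to 80 Mb of chromosome 1, where the HCR samples had 32.4% to 36.2% of windows under 10% (median 34.9%) and the LCR samples 36.2% to 40.0% (median 38.1%). The lines met only at 36.2%, the value of HCR replicate 3 and of LCR replicate 2. The difference was -3.65 points (SE 0.676, 95% interval -5.11 to -2.19, limma adjusted p = 0.0426), and after centring -2.60 points (limma adjusted p = 0.246), with a range over all alternatives of 0.0265 to 0.418. No window-rich bin was called without HCR replicate 1, 2, 4 or 6 or without any of LCR replicates 3 to 8, and 4 were called without LCR replicate 1, when 1.31% of all bins were. Fewer such windows in HCR were nominally found in 109 of the 120 bins and in 1394 of all 1837 bins tested. At an unadjusted p under 0.05 there were 28 of the 120 (23.3%, against 13.6% of all bins tested).

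The share of windows at 70% or more gave 0 called window-rich bins by limma, against a background of 0.218%. At an unadjusted p under 0.05 there were 28 of 120 (23.3%), against 338 of all 1837 bins tested (18.4%). The smallest p belonged to 44 to 45 Mb of chromosome 13, where HCR samples had 7.89% to 9.21% of such windows (median 8.88%) and LCR samples 5.26% to 7.89% (median 6.25%), a difference of 2.52 points (SE 0.614, 95% interval 1.23 to 3.81, limma adjusted p = 0.0595). The next were 88 to 89 and 85 to 86 Mb of chromosome 10, at 2.62 and 2.37 points (limma adjusted p = 0.0833 for each). Without HCR replicate 3 the count was 3, and 2.72% of all bins were called. The lines did not overlap in 1 window-rich bin (0.833%), and in 7 of all 1837 bins tested (0.381%). The window-rich one was 7 to 8 Mb of chromosome 20, where HCR had 12.0% ± 0.908 and LCR 9.63% ± 0.771 of such windows (limma adjusted p = 0.101).

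Over all 21921 window-rich windows the median HCR minus LCR difference was 0.535 points, with quartiles of -0.465 and 2.93 points, against a median of 0.504 points over all windows tested. In a limma fit of the log2 logit of the level over all 135802 common windows, with Benjamini-Hochberg adjustment over all of them, 0.569% were called, 0.405% higher and 0.164% lower in HCR. Of the window-rich windows 114 were called (0.52%), 85 higher and 29 lower in HCR, a share close to the background. With every library centred on its mean there were 91 (50 higher, 41 lower). Quantile normalization left 89 (48 higher, 41 lower). Without HCR replicate 2, 4 or 6 the calls fell to 66, 75 and 74. The shares of all windows called in these alternative runs are not given. These counts therefore cannot show whether the change was particular to window-rich windows. The lines did not overlap in 77 of the 114 called windows, and over all window-rich windows in 0.693%, against 0.71% of all windows tested. Among called windows this separation, and the sizes that follow, were set in part by their choice from the same values. The median size of a called difference was 15.6 points, with quartiles of 11.0 and 24.6 points. It was 10 points or more in 91 windows and 25 points or more in 26.

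Calls were rarest at the ends of the methylation range. They made up 0.231% of window-rich windows under 10% (15 windows), 0.535% at 10 to 30% (25), 0.828% at 30 to 50% (37), 0.659% at 50 to 70% (31) and 0.378% at 70% or more (6). Over all windows tested the shares in these classes were 0.244%, 0.601%, 0.784%, 0.726% and 0.571%. The 15 called windows under 10% differed by a median of 2.91 points, those at 30 to 50% by a median of 22.6 points.

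The called windows were spread over 51 of the 120 bins. In 29 of these bins all calls were higher in HCR, in 5 all were lower and in 17 both directions occurred. Of the 29 only 12 had 2 or more calls, and of the 5 there were 0, so that most bins of a single direction had 1 call. Of the called windows 54 had a tested window directly beside them, 59 such neighbours in all. These neighbours differed between the lines by a median of 3.17 points in either direction. The called windows beside them differed by a median of 14.8 points, which their choice as called windows set in part, and over all window-rich windows the median size of the difference was 1.75 points. The direction was the same in 40 of 59 (67.8%), against 57.9% of all adjacent pairs of window-rich windows, and 2 of the 59 were called. Those 2 were one pair, 31598001 to 31599000 and 31599001 to 31600000 on chromosome 12. The first had 44.8% ± 7.71 in HCR and 21.1% ± 8.31 in LCR, the second 58.1% ± 7.12 and 33.6% ± 9.43 (± SD; limma adjusted p = 0.0264 and 0.0266).

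Most calls in one bin were found at 103 to 104 Mb of chromosome 10, with 10 called windows, 6 higher and 4 lower in HCR. They ran from -37.5 points at 103373001 to 103374000 to 26.6 points at 103278001 to 103279000, and the bin mean differed by 0.841 points (SE 0.659, limma adjusted p = 0.333). The bin at 23 to 24 Mb of chromosome 19 had 6, of which 5 were higher in HCR by 9.59 to 35.5 points. Its sixth, at 23491001 to 23492000, differed by -2.91 points, at levels of 0.802% in HCR and 3.71% in LCR. At 6 to 7 Mb of chromosome 17 there were 5, of which 4 were higher by 24.7 to 42.3 points. At 148 to 149 Mb of chromosome 5 there were 4, with 2 in either direction, and at 40 to 41 Mb of chromosome 12 there were 4, with 3 higher. The bins at 48 to 49 Mb of chromosome 19, 7 to 8 Mb of chromosome 20 and 8 to 9 Mb of chromosome 17 also had 4, all higher in HCR. All bins in this list were picked for their high counts. Over all windows tested 0.569% were called, and whether any bin exceeded this share was not tested.

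Among windows higher in HCR, the largest difference was at 6833001 to 6834000 on chromosome 17. Its HCR samples lay at 29.8% to 72.2% (median 56.2%) and its LCR samples at 0.763% to 32.2% (median 8.38%), and HCR replicate 4 was below the highest LCR sample. The difference was 42.3 points (log2 logit difference 3.59, SE 0.66, limma adjusted p = 0.0215), and the call was lost without HCR replicate 2 (limma adjusted p = 0.0603) or 5 (limma adjusted p = 0.0539). Its adjusted p ran from 0.00548 to 0.0783 over all alternatives.

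At 130195001 to 130196000 on chromosome 7, 5 of the 6 HCR samples had the same value, 75%, and replicate 5 had 70.6%. The LCR samples lay at 20.4% to 55.8% (median 30.4%), all below HCR. The difference was 39.02 points (limma adjusted p = 0.00237). The window before it differed by 13.6 points in the same direction and was not called (37.8% ± 8.17 and 24.2% ± 8.47, limma adjusted p = 0.218).

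In the window 40513001 to 40514000 of chromosome 12 the HCR samples lay close together, at 51.7% to 59.1% (median 55.1%), and the LCR samples at 5.91% to 38.1% (median 17.2%). The lines did not overlap (difference 37.03 points, limma adjusted p = 0.0098). The window directly before it stood at 57.9% ± 2.02 in HCR and 61.1% ± 4.37 in LCR, a difference of -3.17 points (limma adjusted p = 0.635).

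Both remaining windows of this direction were on chromosome 19. Between 23727001 and 23728000 the HCR samples lay at 68.6% to 79.2% (median 78.1%) and the LCR samples at 31.7% to 48.6% (median 41.8%), a difference of 35.5 points by limma (adjusted p = 2.28e-05). The window after it had 60.1% ± 4.26 in HCR and 60.8% ± 4.29 in LCR. From 45127001 to 45128000, inside the bin with the largest mean difference, the levels were 45.5% to 56.8% in HCR (median 52.2%) and 8.27% to 26.3% in LCR (median 18.04%; limma adjusted p = 0.00138).

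Among windows lower in HCR, the largest difference was at 79833001 to 79834000 on chromosome 10. The HCR samples lay at 14.2% to 33.9% (median 28.5%) and the LCR samples at 65.97% to 75% (median 70.1%), a difference of -45.3 points (limma adjusted p = 6.95e-05). The window directly before it was at 67.4% ± 13.8 in HCR and 68.5% ± 5.29 in LCR. A second window of the same bin, at 79351001 to 79352000, had 5.83% to 15.8% in HCR (median 8.85%) and 13.5% to 65.7% in LCR (median 55.9%; limma adjusted p = 0.005). LCR replicate 4, at 13.5%, lay within the HCR range there, and the other LCR samples were at 40.7% or more.

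The level of 163248001 to 163249000 on chromosome 5 was listed at 0 in HCR replicates 2, 3 and 6 and reached 5.74% in HCR replicate 4, while the LCR samples lay at 27.9% to 60.8% (median 46.5%; limma adjusted p = 0.000123). A window of chromosome 10, 13109001 to 13110000, was listed at 0 in HCR replicates 2 to 5 and stood at 16.7% in replicate 6 and 27.5% in replicate 1. The LCR samples of that window lay close together, at 42.2% to 47.5% (median 45.6%; limma adjusted p = 0.0104). The window 103373001 to 103374000 of that chromosome differed as well: its HCR samples lay at 27.5% to 38.8% (median 28.3%) and the LCR samples at 62.2% to 75.5% (median 69.3%), a difference of -37.5 points (limma adjusted p = 2.28e-05).

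**Figure D5:**
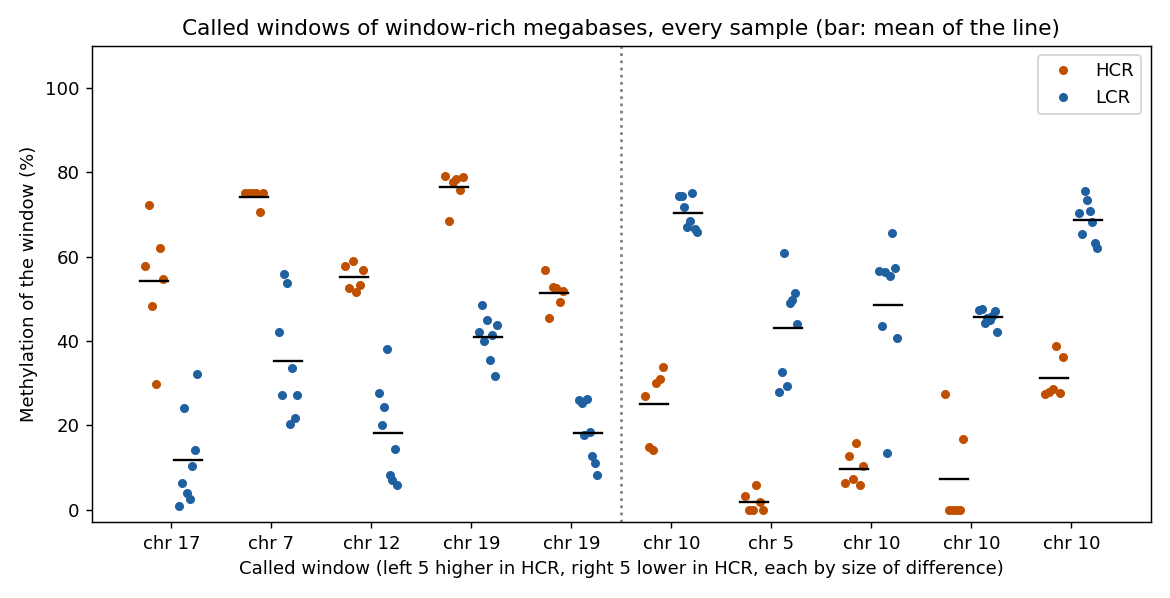
Methylation (y axis, %) of the 10 named called windows in every sample (x axis, chromosome of the window; 5 higher in HCR on the left, 5 lower on the right); points are samples and bars line means. The samples of the lines are separate in 8 windows, and overlap in the chromosome 17 window and in the third from the right. The windows were chosen by the size of their difference, which set this separation in part.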

How the data were processed

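Per the labels' protocols, RRBS libraries were made from 100 ng of DNA with MspI digestion, and pools of unstated membership were bisulfite converted and amplified. Per the submitters' processing notes, the authors used FastQC, Trim Galore 0.6.10, Bismark and Bowtie2 with rn7. Their other settings, and those of the window step, were not stated in what was read. In the deposited table there is percent methylation per 1000 bp window and library, with no counts, so depth is unknown. 0 sample columns were left unused.

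Bins were formed by position; bin means and class shares used windows with a value in all 14 samples. Windows were compared as log2((level + 0.01)/(1 - level + 0.01)) of the level as a fraction, bins as untransformed percentages, with limma 3.58.1 in R 4.3.3 (variance trend, line only, Benjamini-Hochberg over all features tested, called at an adjusted p under 0.05). Descriptions used Python 3.11.15, numpy 2.4.6 and pandas 2.3.3. The fits were tested on simulated data, drawn independently for each window or bin, so shifts shared by a whole library were not simulated. For bin means, 45 of 100 differences of 2 points and 100 of 100 of 4 points were called. Among 1637 unchanged bins 10 were called. For windows, 49 of 100 differences of 1 and 89 of 100 of 2 log2 logit units were called, and 9 of 135602 unchanged windows. For shares under 10%, 47 of 100 differences of 4 points and 95 of 100 of 8 points were called. For shares at 70% or more these counts were 53 and 94. Among 1637 unchanged bins 5 and 6 were called for the 2 shares.

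The members, lists and tests were chosen with earlier results of these data known. Named were the 10 bins with most windows, the 3 lowest and 3 highest bins, called bins (up to 5 per direction for means, 3 for shares; without calls, those with the smallest p), the 5 bins with most called windows (ties by chromosome and start), 5 called windows per direction and the 3 bins on either side of 200 windows. Each member was compared over samples, never over windows. Bins named besides these (other stretches, 6 to 7 Mb of chromosome 12, 45 to 46 Mb of chromosome 19, ties in called windows) were chosen after their values were seen. Alternatives were an offset of 0.05, untransformed levels, no moderation, a minimum difference of 10 points, centring, a replicate block, leaving out each sample, all windows, at least 50 windows per bin, missing windows as a covariate, limits of 150 and 250 windows and edges moved by 500 kb.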

Additional observations from a re-analysis of the deposited data

Results flagged for a closer look

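Samples far from the rest of their line were sought in 72 sets of values, from 4 measures of the libraries, 22 bins and 10 windows in both lines. There were 4 such sets, and chance alone flags about 1 set in 20. HCR replicate 3 stood apart from the other HCR samples in the mean of 2 bins. At 156 to 157 Mb of chromosome 3 it had 24.5% against 26.6% to 27.8%, and at 163 to 164 Mb of chromosome 5 it had 41.4% against 43.8% to 45.3%. This library lacked a value in 1986 of the window-rich windows, the most of its line. A covariate counted the windows each library lacked over the whole file. With it 64 of the 120 window-rich bins and 39.1% of all bins tested were called. The HCR value of replicate 2 was low from 23727001 to 23728000 on chromosome 19, where it had 68.6% and the other HCR samples 75.9% to 79.2%. At 130195001 to 130196000 on chromosome 7, HCR replicate 5 had 70.6% and the other HCR samples all had 75%.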

How the results depend on the processing

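Quantile normalization and the covariate for windows were chosen after seeing the data. The 114 called windows became 69 with the 12 samples numbered 1 to 6 and 13 with a replicate block on those. Leaving out each sample gave 66 to 102. The shares of all windows called in these runs are not given. The limits changed only which windows were counted, with 214 calls at 150 windows per bin and 51 at 250. Bins of 150 to 199 windows had 0.476% of their common windows called. Those of 250 to 299 had 0.675% and those of 300 or more 0.395%, against 0.569% of all windows tested. Same-numbered samples of the 2 lines deviated together by a correlation of -0.03 to 0.03, so the numbers are not treated as pairs, and 1 of 6 HCR samples correlated best with its own number. The 2 called bin means became 0 with the replicate block, with its 12 samples without the block and without moderation. They also became 0 with all windows of the file. After centring 1 was called (lower in HCR), and with edges moved by 500 kb 1 was called. With at least 50 windows per bin there were 12, and the share of all bins called in that run is not given. There were 64 with the covariate and 0 to 62 leaving out each sample, with the shares over all bins given above. The limits changed only which bins were counted, in a fit that called 5.23% of all bins tested. With 250 windows 0 were called. With 150 there were 13, because 170 bins with 11 calls were added. The 1 bin called for windows under 10% became 0 after centring, without moderation, with all windows, with at least 50 windows per bin, with the replicate block, with its 12 samples and with moved edges, 5 with the covariate and 0 to 4 leaving out each sample. For windows at 70% or more 0 became 3 without moderation, 1 with at least 50 windows per bin, 1 with the covariate and 0 to 3 leaving out each sample. Among these alternatives for the class shares, the percent of all bins called is given above only for single runs. These are the run without LCR replicate 1 (under 10%) and the run without HCR replicate 3 (70% or more).

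With all windows of the file the classes held, from low to high, 23.8%, 20.1%, 21.9%, 24.6% and 9.61%. With a limit of 250 windows the classes of 10 to 30% and 30 to 50% held 22.3% and 21.1%, and with 150 windows the class at 70% or more held 7.77%. The gap to the other autosomal bins was -4.40 points with all windows, -4.16 and -3.56 with limits of 150 and 250, and -4.07 with moved edges. The line difference over window-rich windows was 0.931 to 1.57 points leaving out each sample. The 3 bins called for their mean or their share under 10% and the 10 windows named by the size of their difference kept their direction in each alternative run on them, and other called windows were not followed. Of the 10 named windows, 6 lost their call with the replicate block (limma adjusted p 0.0504 to 0.156). Depth is unknown, so a level listed at 0 has no limit attached.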
